A study of Mus musculus with 6 samples.

Results

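DNA replication and nucleotide synthesis genes were followed through 3 groups of mouse CD4 T cells that differed in the miR-17-92 cluster, whose microRNAs are all processed from a shared primary transcript. The group of genes holds 48 named genes of the replication machinery and of deoxynucleotide supply, matched to the arrays by symbol. A gene was measured when a probe set of the array carried its symbol alone, and where several did, the brightest on average over the 6 arrays was taken. By this rule 45 of the 48 genes were measured, among 12393 genes in all, and Gins2, Gins3 and Chaf1a had no probe set of their own.

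The arrays measured mRNA in sorted CD4+CD25- T cells that had been activated on plate-bound anti-CD3 and anti-CD28, infected with a retrovirus and taken for RNA 5 days later, in medium with 10% serum at 7% CO2. WT B6 cells with the empty vector are called wild-type mock here. T cells from miR-17-92f/f mice that also carried CD4-cre (CD4-cre+, on B6), in which Cre driven by the CD4 promoter removes the cluster in T cells, received either the empty vector (deficient mock) or the vector overexpressing miR-17 (deficient miR-17), so that both deficient groups lack the other microRNAs of the cluster. Each group had 2 arrays, labelled as biological replicates. The labels do not say whether these came from separate animals, so the p-values measure the spread between these arrays. The study asked which genes rise without the cluster and fall again when miR-17 is returned.

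Before a cell divides it must copy its genome once. In G1 phase the origin recognition complex, Cdc6 and Cdt1 load the Mcm2 to Mcm7 ring on DNA, a step called licensing. In S phase the kinase Cdc7 with Dbf4, together with Cdc45 and the GINS complex, turns the ring into an active helicase, and DNA polymerases alpha, delta and epsilon copy the strands with the sliding clamp Pcna and its loader. Ribonucleotide reductase, thymidylate synthase and related enzymes supply the deoxynucleotides, and many of these genes are known targets of E2F transcription factors. T cells stimulated through their antigen receptor and CD28 enter the cell cycle from rest, and the replication genes are among those that are switched on.

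One link between the group of genes and the microRNAs of the study lies in the Mcm7 gene. The transcripts of the 48 genes were not searched for sites with which miR-17 could pair. In RefSeq's mouse assembly GRCm38.p6, Mcm7 lies at chr5:138164583-138172111 on the minus strand, and 3 microRNA hairpins (Mir25, Mir93 and Mir106b, the miR-106b-25 cluster) lie inside it on the same strand. The sequences of miR-17 and of miR-20a from the deleted cluster on chromosome 14, and of the microRNAs miR-106b and miR-93 from within Mcm7, are shown because all 4 carry the same seed, the bases 2 to 8 by which a microRNA pairs with its targets, given in capitals.
mmu-miR-17-5p, chr14:115043684-115043706, plus strand: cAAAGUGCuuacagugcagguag
mmu-miR-20a-5p, chr14:115044183-115044205, plus strand: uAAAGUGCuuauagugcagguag
mmu-miR-106b-5p, chr5:138165787-138165807, minus strand: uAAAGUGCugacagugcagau
mmu-miR-93-5p, chr5:138165574-138165596, minus strand: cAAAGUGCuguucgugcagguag
The arrays measured the Mcm7 mRNA and not these microRNAs, and transcripts of the miR-17-92 cluster itself were not analysed here.

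Values are log2 probe set intensities, so a difference of 1 is a doubling. Array medians lay between 5.71 and 5.76, and arrays of a group correlated across genes at 0.994 in each of the 3 groups. The labelled cell type was checked with 11 measured T cell markers, which lay between 8.96 and 12.2 on every array, while markers of B cells, macrophages, dendritic cells, NK cells, neutrophils and erythroid cells lay between 3.12 and 6.26. Among all of these lists, with Cd8a and Cd8b1 (4.49 to 6.21), 1 marker was called between deficient and wild-type mock cells, the T cell gene Thy1, which fell by 0.73. Two-sided tests came from one limma fit over all genes, and a gene was called at a Benjamini-Hochberg adjusted p under 0.05. An exact permutation test of 2 arrays against 2 cannot go below p = 0.333.

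Without the cluster, at least 1 gene rose in 9 of the 10 replication and nucleotide roles. Neither of the 2 genes of flap removal and ligation was called, though both differences were above 0. Of the 45 measured genes, 28 rose between wild-type mock and deficient mock cells at an adjusted p under 0.05 in limma, none fell, and 17 did not pass the test. Over all genes tested, 3.74% were called higher and 2.79% lower. All 45 differences were above 0 (45.0% of all genes), and 42 had an unadjusted p under 0.05 (21.6% of all genes). The median difference of the 45 genes was 0.58, a 1.5-fold rise, and that of all genes was -0.03. Differences ran from 0.16 for Mcm6 to 0.88 for Cdc6, so the shift was broad and below a doubling in each gene.

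The count of calls rested on single arrays. It was 0 without wild-type mock replicate 1, 0 without deficient mock replicate 2, 7 without deficient mock replicate 1 and 27 without wild-type mock replicate 2. No call was thus kept in every fit that left out an array of these groups. The median differences of these fits ran from 0.46 to 0.73, with 44 or 45 of 45 genes above 0 in each. That count above 0 was nearly fixed in advance. In 44 genes the deficient mock arrays lay above both wild-type arrays (25.1% of all genes), so leaving out an array could not change the sign. In bulk RNA, more cells that express a gene and more of its RNA per cell cannot be told apart.

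**Figure D1:**
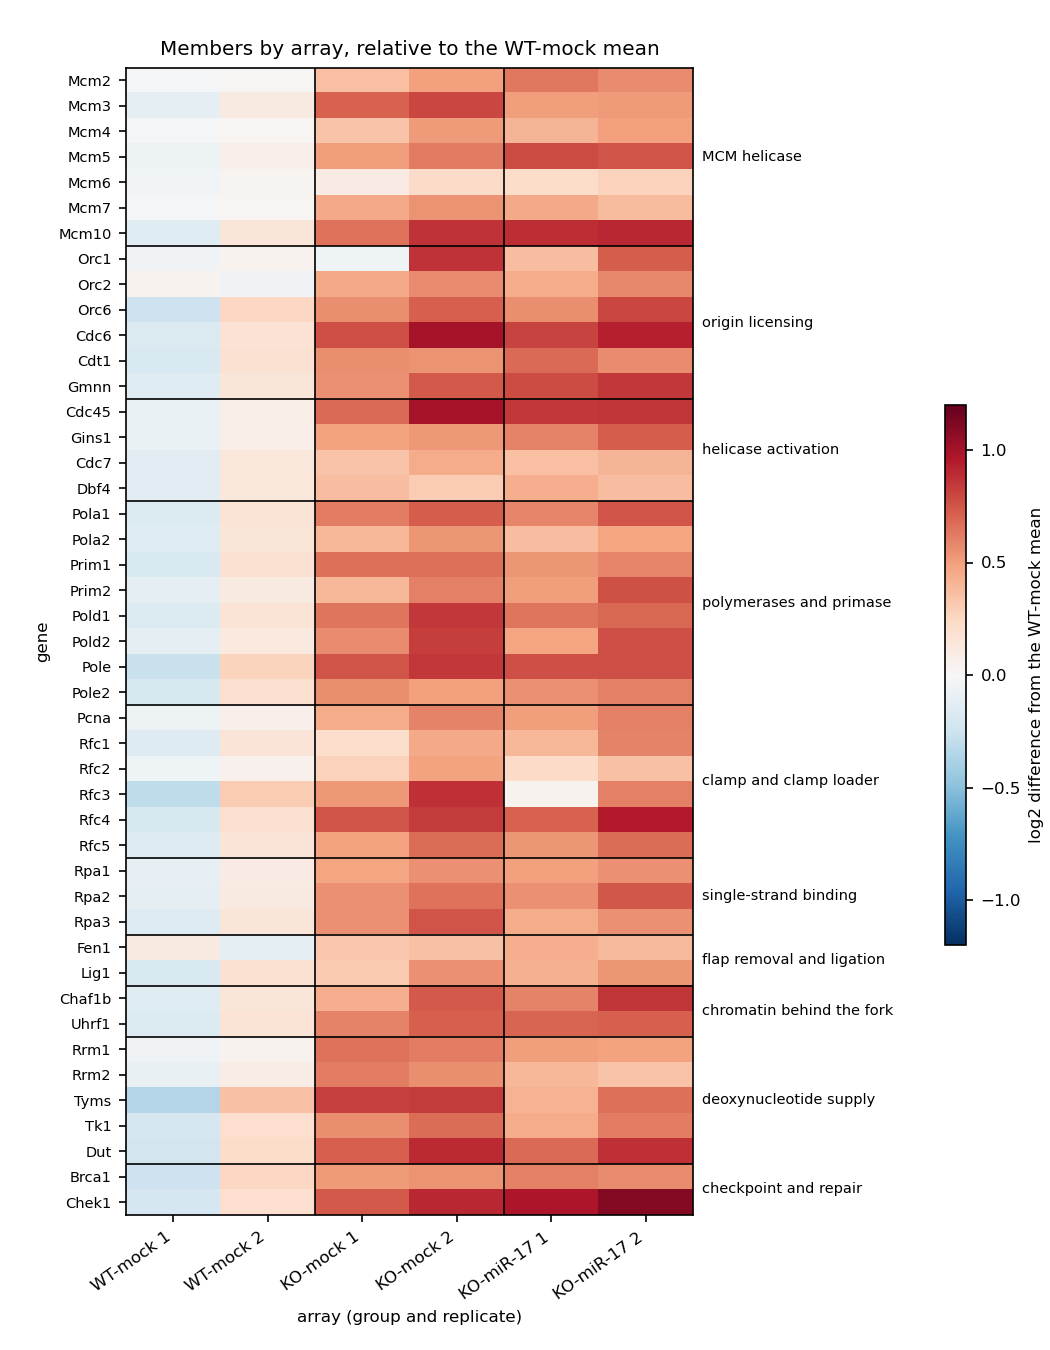
Log2 difference of each of the 45 measured replication and nucleotide genes (rows, grouped by role) from its wild-type mock mean, on each of the 6 arrays (columns; WT-mock is wild-type mock, KO-mock deficient mock, KO-miR-17 deficient miR-17). The deficient arrays are shaded toward higher values in nearly every row, and Orc1 on deficient mock replicate 1 and Rfc3 on deficient miR-17 replicate 1 are the palest cells among them.

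Read array by array, the genes placed the 2 wild-type arrays below the 4 deficient ones. The median of the 45 genes, relative to each gene's wild-type mean, was -0.15 and 0.15 on the arrays of wild-type mock cells, 0.55 and 0.65 on those of deficient mock cells, and 0.51 and 0.61 on those of deficient miR-17 cells. In 43 of the 45 genes every deficient array lay above both wild-type arrays, against 19.2% of all genes. The gap between the highest wild-type and the lowest deficient array had a median of 0.35 over all 45 genes. It ran from 0.06 to 0.60 in these 43 genes. The exceptions were Orc1, an origin recognition subunit that read 6.20 and 6.29 in wild-type mock cells and 6.20 and 7.11 in deficient mock cells, and Rfc3, a clamp loader subunit that read 7.38 on one deficient miR-17 array and 7.64 on one wild-type array.

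The genes also moved together between replicates. On the array numbered 2, 43 of the 45 genes were higher than on the array numbered 1 in wild-type mock cells (46.6% of all genes), 40 in deficient mock cells (49.4%) and 35 in deficient miR-17 cells (47.9%). The median gap was 0.29 in wild-type mock cells, beside a median difference between the genotypes of 0.58, and 0.13 and 0.10 in the deficient groups. With the replicate number as a block, limma called 43 of the 45 genes between deficient and wild-type mock cells, and 2723 of all genes. The labels do not say that the numbers pair samples. Control probe sets moved with the groups as well. The mean of 24 poly-A control sets, for transcripts that can be spiked in before labelling, was 7.93 and 7.63 in wild-type mock, 7.40 and 7.02 in deficient mock, and 7.46 and 7.02 in deficient miR-17 cells. All 24 were lower in deficient than in wild-type mock cells, by a mean of 0.57, and the 18 hybridization control sets were all lower, by a mean of 0.17. Their part in the result was not tested.

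The MCM helicase genes encode the ring that unwinds DNA, together with Mcm10, which binds the ring and helps start unwinding. Of 7 measured genes, 6 rose in deficient mock cells, with a median difference of 0.50. Mcm3 read 9.52 and 9.74 in wild-type mock cells, 10.34 and 10.43 in deficient mock cells, and 10.13 and 10.14 in deficient miR-17 cells. The miR-17 arrays of Mcm3 sat between the other groups without touching either. Its rise without the cluster was 0.76 ± 0.10 (SE, n = 2 against 2; 1.69-fold; limma adjusted p = 0.0106), the smallest unadjusted p among the 45 genes.

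Mcm7, the host of the miR-106b-25 hairpins, read 10.94 and 10.99 in wild-type mock cells, 11.42 and 11.50 in deficient mock cells, and 11.42 and 11.34 in deficient miR-17 cells. Both deficient groups lay above the wild-type arrays, by 0.50 ± 0.07 (limma adjusted p = 0.0151) and 0.42 ± 0.07 (limma adjusted p = 0.0215). All 4 probe sets of Mcm7 were higher in deficient mock cells, by 0.43 to 0.61, but all 4 are of a kind that can match several transcripts or genes. These sets cannot tell a change in the transcript that carries the hairpins from any other change in Mcm7 mRNA.

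Mcm5 read 9.05 and 9.17 in wild-type mock cells, 9.61 and 9.73 in deficient mock cells, and 9.89 and 9.86 in deficient miR-17 cells. Mcm2 had the same order, with 8.95 and 8.97, then 9.32 and 9.45, then 9.59 and 9.52. Mcm10 read 7.30 and 7.60, then 8.10 and 8.32, then 8.34 and 8.36. In these 3 genes the miR-17 arrays lay above both deficient mock arrays, an order found in 15.0% of all genes. The miR-17 arrays of Mcm3 and, narrowly, of Mcm7 lay below both deficient mock arrays, as in 13.9% of all genes. None of these genes was called between the deficient groups. Mcm4 rose by 0.42 (limma adjusted p = 0.037), and Mcm6 differed by 0.16 (95% interval -0.03 to 0.36), the smallest difference of all 45 genes. Its arrays read 10.34 and 10.40 in wild-type mock, 10.47 and 10.60 in deficient mock, and 10.59 and 10.65 in deficient miR-17 cells, where the deficient groups overlap.

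Of the origin licensing genes, 3 of 6 rose, with a median difference of 0.59. Cdc6, the ATPase that helps load the MCM ring, read 7.58 and 7.94 in wild-type mock cells, 8.53 and 8.75 in deficient mock cells, and 8.57 and 8.69 in deficient miR-17 cells. Its difference, 0.88 ± 0.15 (1.84-fold; limma adjusted p = 0.0201), was the largest among the 45 genes. Gmnn, which encodes geminin, the inhibitor that blocks Cdt1 after S phase has begun, read 9.27 and 9.56, then 9.96 and 10.15, then 10.20 and 10.26. The licensing factor and its inhibitor thus both rose, Cdt1 by 0.55 (limma adjusted p = 0.0387) and Gmnn by 0.64 (limma adjusted p = 0.0257). The origin recognition subunits Orc1, Orc2 and Orc6 did not pass the test, with differences of 0.41, 0.51 and 0.64, and Orc2 missed it narrowly (limma adjusted p = 0.0505).

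Helicase activation had 2 of 4 measured genes higher. Cdc45, which joins the MCM ring at the firing origin, read 6.86 and 7.02 in wild-type mock cells, 7.62 and 7.94 in deficient mock cells, and 7.79 and 7.80 in deficient miR-17 cells, a rise of 0.84 ± 0.14 (1.79-fold; limma adjusted p = 0.0201). Gins1, a subunit of the GINS complex that binds beside it, read 7.83 and 7.99, then 8.40 and 8.43, then 8.51 and 8.64. The kinase Cdc7 and its activator Dbf4 differed by 0.39 and 0.34 and did not pass the test.

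Polymerase and primase genes had a median difference of 0.66, and 5 of 8 rose. Pold1, the catalytic subunit of DNA polymerase delta, read 8.24 and 8.57 in wild-type mock cells, 9.04 and 9.25 in deficient mock cells, and 9.05 and 9.09 in deficient miR-17 cells, a rise of 0.74 ± 0.13 (limma adjusted p = 0.0237). Prim1, the primase subunit that makes the RNA primers, read 8.84 and 9.21, then 9.68 and 9.69, then 9.56 and 9.61. Neither gene's deficient arrays reached down to the wild-type range. The catalytic subunits Pola1 and Pole rose by 0.67 and 0.80, and Pold2, the second subunit of polymerase delta, by 0.70. The accessory subunits Pola2, Prim2 and Pole2 differed by 0.46, 0.50 and 0.52 and did not pass the test, so the 3 catalytic polymerase subunits were called and the second subunits of alpha and epsilon were not. Whether those differences are unequal was not tested.

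Of the clamp and clamp loader genes, 3 of 6 rose. Pcna, the sliding clamp that holds polymerases on DNA, read 11.99 and 12.12 in wild-type mock cells, 12.50 and 12.65 in deficient mock cells, and 12.56 and 12.66 in deficient miR-17 cells, a rise of 0.52 ± 0.08 (1.43-fold; limma adjusted p = 0.0186). Rfc4, a clamp loader subunit, read 7.88 and 8.26, then 8.82 and 8.91, then 8.78 and 9.02. Rfc5, another loader subunit, rose by 0.58 (limma adjusted p = 0.0489). The loader subunits Rfc1, Rfc2 and Rfc3 differed by 0.33, 0.38 and 0.70 and did not pass the test, Rfc3 with the widest interval of them (0.11 to 1.28).

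All 3 subunits of replication protein A, which coats single-stranded DNA, rose. Rpa1 read 10.11 and 10.30 in wild-type mock cells, 10.68 and 10.75 in deficient mock cells, and 10.70 and 10.75 in deficient miR-17 cells. Rpa2 read 8.09 and 8.30, then 8.74 and 8.85, then 8.74 and 8.94. Their differences were 0.51, 0.60 and, for Rpa3, 0.65 (limma adjusted p = 0.0227, 0.0302 and 0.0302). The deficient mock and deficient miR-17 arrays of Rpa1 and Rpa2 overlapped.

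Neither of the genes that finish the lagging strand was called. Fen1, the flap nuclease, read 9.73 and 9.52 in wild-type mock cells, 9.95 and 9.98 in deficient mock cells, and 10.06 and 10.02 in deficient miR-17 cells, a difference of 0.34 ± 0.10 (limma adjusted p = 0.0818). Lig1, the ligase that seals the fragments, read 9.46 and 9.83, then 9.96 and 10.19, then 10.07 and 10.17. Fen1 depended on the probe set: its dimmer set differed by 0.79, against 0.34 for the brighter set that stood for it.

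Chromatin behind the fork was represented by Chaf1b, a subunit of the histone chaperone CAF-1, and Uhrf1, which brings the maintenance DNA methyltransferase to newly copied DNA. Uhrf1 read 9.22 and 9.55 in wild-type mock cells, 9.98 and 10.10 in deficient mock cells, and 10.08 and 10.10 in deficient miR-17 cells, a rise of 0.66 ± 0.12 (limma adjusted p = 0.0251). Chaf1b read 7.04 and 7.33, then 7.62 and 7.92, then 7.78 and 8.04, and its difference of 0.58 did not pass the test (limma adjusted p = 0.0791).

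Deoxynucleotide supply had 4 of 5 genes higher, with a median difference of 0.63. Rrm1, the large subunit of ribonucleotide reductase, read 9.55 and 9.65 in wild-type mock cells, 10.25 and 10.21 in deficient mock cells, and 10.10 and 10.08 in deficient miR-17 cells. Rrm2, the small subunit, whose amount is limiting and peaks in S phase, read 10.35 and 10.52, then 11.05 and 10.99, then 10.83 and 10.78. Both genes formed 3 separate levels, lowest in wild-type mock and highest in deficient mock cells. Their rises without the cluster were 0.63 ± 0.08 (1.55-fold; limma adjusted p = 0.0106) and 0.58 ± 0.09 (1.5-fold; limma adjusted p = 0.0149). Dut, which removes dUTP, rose by 0.80 and the salvage enzyme Tk1 by 0.61. Tyms, thymidylate synthase, differed by 0.83 with an interval of 0.30 to 1.36 and did not pass the test.

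Checkpoint and repair genes were Chek1, the kinase that slows S phase when forks stall, and Brca1, a repair factor. Chek1 read 6.95 and 7.35 in wild-type mock cells, 7.89 and 8.05 in deficient mock cells, and 8.12 and 8.25 in deficient miR-17 cells, a rise of 0.82 ± 0.15 (1.76-fold; limma adjusted p = 0.0265). Brca1 read 7.80 and 8.31, then 8.56 and 8.59, then 8.66 and 8.62. Its deficient arrays lay above both wild-type arrays, but the 2 wild-type arrays lay far apart, and the difference of 0.52 did not pass the test (limma adjusted p = 0.1).

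**Figure D2:**
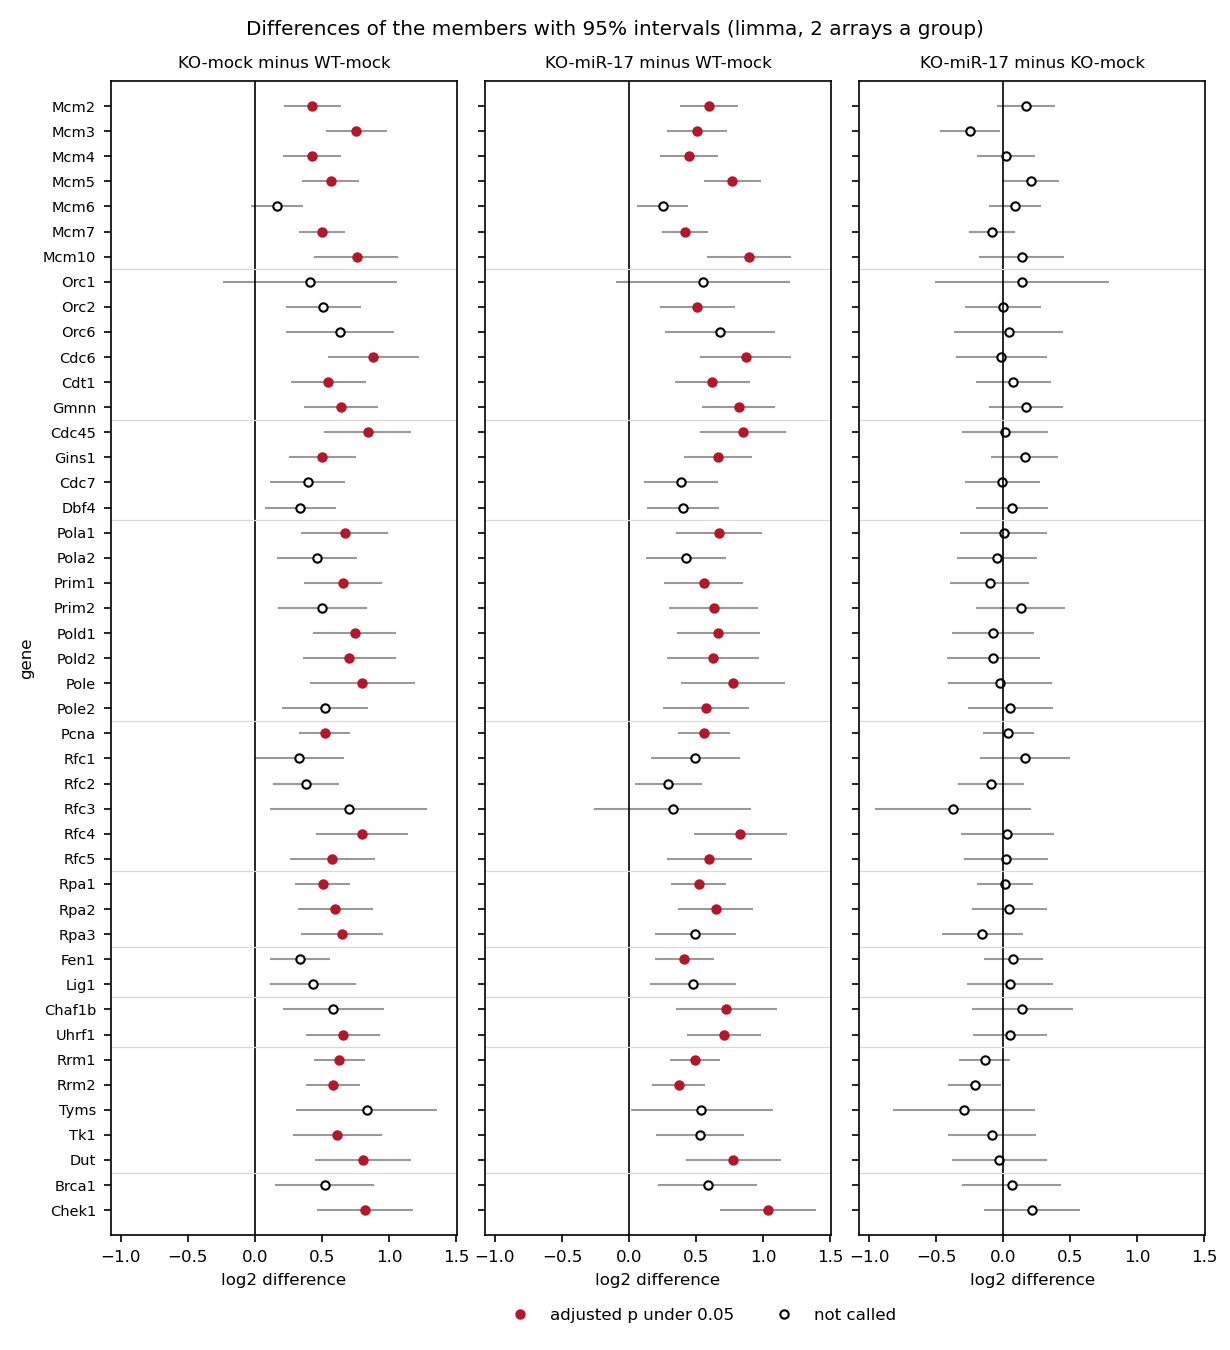
Fitted log2 differences (horizontal axis) of the 45 genes (rows, in the order of the roles) in the 3 comparisons, with 95% intervals from limma; filled points had an adjusted p under 0.05. The points of both comparisons with wild-type mock cells lie right of 0, and those of deficient miR-17 minus deficient mock scatter around 0 with no filled point.

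Return of miR-17 to deficient cells left no gene called in the fit without a replicate block. Between deficient mock and deficient miR-17 cells limma called 0 of the 45 genes and 0 of 12393 genes in all (0% higher and 0% lower), the smallest adjusted p of any gene being 0.428. At an unadjusted p under 0.05 there were 2 of the 45 genes and 487 of all genes (3.93%). Of the 45 differences, 27 were above 0 (51.4% of all genes) and 18 below, and their median was 0.02, against 0.00 for all genes. They ran from -0.37 for Rfc3 to 0.22 for Chek1. The 95% interval held 0 in 43 of the 45 genes, and its median reach to either side was 0.30. A difference of that size in a single gene was thus at the edge of the unadjusted interval in the typical case, and the data do not show that miR-17 left these genes unaltered. With the replicate number as a block, 38 of all genes and 0 of the 45 were called.

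The 2 genes with an unadjusted p under 0.05 were Mcm3 and Rrm2, both lower with miR-17. Mcm3 differed by -0.25 (95% interval -0.47 to -0.02; unadjusted p = 0.0351 in limma) and Rrm2 by -0.21 (-0.41 to -0.01; unadjusted p = 0.0387 in limma), and neither survived adjustment. All 5 probe sets of Mcm3 were lower with miR-17, by 0.18 to 0.26, including those named as specific to one gene. Against wild-type mock cells both genes were higher in deficient miR-17 cells, by 0.51 and 0.37.

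By role, the 5 deoxynucleotide supply genes were all below 0 with miR-17, with a median of -0.14 and a range from -0.29 (Tyms) to -0.03 (Dut), and 3 of them had no overlap between the groups' arrays. Of the 7 MCM helicase genes, 5 were above 0 and Mcm3 and Mcm7 below. Chek1, at 0.22, and Mcm5, at 0.20 (95% interval -0.01 to 0.42), had the largest differences above 0. Arrays of the groups did not overlap upward in 10 of the 45 genes (15.0% of all genes) and downward in 7 (13.9% of all genes).

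The comparison of deficient miR-17 with wild-type mock cells uses the same wild-type arrays as the first, so its values stand beside those above and do not repeat them independently. In it 31 of the 45 genes rose at an adjusted p under 0.05 in limma and none fell, against 4.03% and 2.77% of all genes. All 45 differences were above 0 (45.2% of all genes) and 43 had an unadjusted p under 0.05 (22.8% of all genes), with a median of 0.57, a 1.49-fold difference, and -0.03 for all genes. Chek1 had the largest, 1.03 ± 0.15 (2.05-fold; limma adjusted p = 0.015), and Mcm6 the smallest, 0.25. Mcm5 had the smallest adjusted p, 0.00831 in limma, with a rise of 0.77 ± 0.09. Calls again rested on single arrays: 0 without wild-type mock replicate 1, 0 without deficient miR-17 replicate 2 and 9 without deficient miR-17 replicate 1, with medians from 0.44 to 0.74 over the fits that left out an array.

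Genes called in one of these comparisons and not in the other lay close to the threshold in most cases. Orc2 had an adjusted p of 0.0505 in deficient mock and 0.0499 in deficient miR-17 cells in limma, with differences of 0.51 in both. Tk1 had 0.0461 and 0.069, Rpa3 0.0302 and 0.0657, and Pole2 0.066 and 0.0494. Fen1 (0.0818 and 0.0451), Prim2 (0.0842 and 0.0429) and Chaf1b (0.0791 and 0.0416) lay further apart, and the differences between deficient groups for all 7 were within -0.16 to 0.14.

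Beyond one probe set per gene, 27 of the 45 genes had other sets, 41 in all. Of these, 36 were higher in deficient mock than in wild-type mock cells and 5 were lower. The 5 belonged to Dbf4 (-0.21), Chek1 (-0.17), Pola2 (-0.03), Brca1 (-0.02) and Tyms (-0.01) and were dim, with means of 4.2, 3.02, 3.46, 4.72 and 3.05, near or below the lower quartiles of the arrays (3.99 to 4.17) in all but Brca1. Of the sets that stood for the genes, 15 were of a kind that can match several transcripts or genes.

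**Figure D3:**
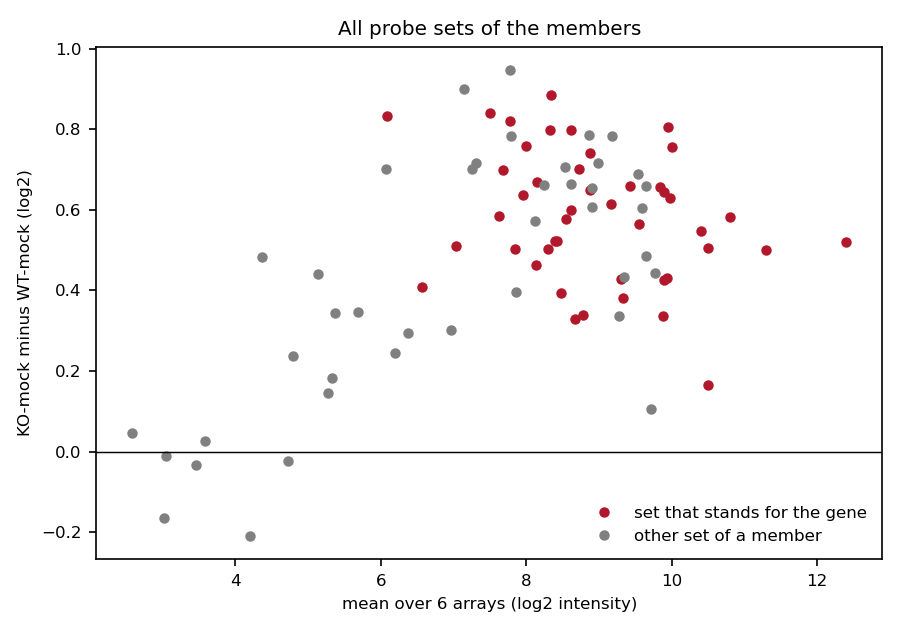
Each of the 86 probe sets of the 45 genes, by its mean over 6 arrays (horizontal axis, log2 intensity) and its log2 difference between deficient and wild-type mock cells (vertical axis). The sets that stand for the genes and most others lie above 0, and the 5 sets below 0 are dim.

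Because many replication genes are E2F targets, the promoters of the 45 genes and of the 3 not measured were searched for letters that E2F factors are known to bind. RefSeq promoter windows in GRCm38.p6, 250 bases before to 50 after the start site, were found for 41 of the 48 genes. The words TTTCCCGC, TTTCGCGC, TTTGCCGC and TTTGGCGC were searched on both strands, and overlapping matches were merged. At least one word was present in 14 of the 41 windows (34.1%), against 4.07% of 9887 tested genes and 2.6% of 27025 genes in the whole table. A match is a description of the letters and not a binding site. The base composition was alike, with a median GC of 60.0% in the 41 windows and 59.3% in those of tested genes.

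The windows of Mcm5, a called gene, and Mcm6, the gene with the smallest difference, hold a longer match made of overlapping words on both strands. Capitals mark the matched letters, each sequence runs 5′ to 3′ on the gene's strand, and the matches begin 153 bases upstream of the start site in Mcm5 and 110 bases upstream in Mcm6.
Mcm5, chr8:75109326-75109397, plus strand: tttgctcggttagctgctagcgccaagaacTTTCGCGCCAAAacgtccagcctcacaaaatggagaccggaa
Mcm6, chr1:128359774-128359845, minus strand: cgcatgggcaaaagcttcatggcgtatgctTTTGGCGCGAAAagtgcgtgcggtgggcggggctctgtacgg
Shorter stretches show single words before the start site of the promoter window in other called genes. These are the microRNA host Mcm7, the gene with the largest difference (Cdc6), Uhrf1 and Pola1, at 165, 138, 185 and 138 bases before that site. The 68 bases around each of these matches overlap the annotated span of the gene itself, and in Mcm7 also that of Ap4m1.
Mcm7, chr5:138172030-138172059, minus strand: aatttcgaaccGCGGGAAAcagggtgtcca
Cdc6, chr11:98908002-98908031, plus strand: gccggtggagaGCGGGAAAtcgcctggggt
Uhrf1, chr17:56304117-56304146, plus strand: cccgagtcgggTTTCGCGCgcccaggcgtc
Pola1, chrX:93632275-93632304, minus strand: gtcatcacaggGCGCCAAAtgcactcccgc

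The words did not separate the genes that were called from those that were not. They were present in 8 of 24 windows of genes called higher in deficient mock cells (33.3%) and in 5 of 15 windows of measured genes not called (33.3%). Among all tested genes called higher they were present in 47 of 387 windows (12.1%). Other replication genes held them in 8 of 24 windows (33.3%), other nucleotide synthesis genes in 2 of 24 (8.33%) and mitosis genes in 3 of 28 (10.7%). The CCAAT word, which NF-Y binds, was present in 25 of the 41 windows (61.0%), against 42.3% of tested genes. By group it was present in 16 of the 24 windows of called genes (66.7%), 7 of the 15 of measured genes not called (46.7%), 22 of the 28 of mitosis genes (78.6%) and 10 of the 24 of other replication genes (41.7%). Its share was thus higher in mitosis genes than in the 41 windows, and no test of these shares was made.

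Genes of the same pathways outside the 48 were higher too, with exceptions. Of 29 other measured replication genes, 11 rose in deficient mock cells, 1 fell and 17 did not pass the test, with a median difference of 0.48. The largest rise with the smallest p was that of Dna2, the nuclease that trims long flaps, with 7.08 and 7.13 in wild-type mock, 8.09 and 8.09 in deficient mock, and 7.68 and 7.78 in deficient miR-17 cells (0.99; limma adjusted p = 0.00578). Exo1, an exonuclease of mismatch repair, rose by 0.98, the histone chaperone Nasp by 0.74 and Wdhd1, which links polymerase alpha to the helicase, by 0.73. Of the 29 differences, 3 were below 0. The 1 gene called lower was Pold4, the smallest subunit of polymerase delta. It read 9.13 and 9.49 in wild-type mock, 8.26 and 8.36 in deficient mock, and 8.35 and 8.32 in deficient miR-17 cells. It fell by 1.0 (limma adjusted p = 0.011) while Pold1 and Pold2 rose. Without wild-type mock replicate 1 or deficient mock replicate 2 only 1 of the 29 genes was called higher, and without deficient mock replicate 1 there were 3. The call of Pold4, the 1 gene that fell, was lost without deficient mock replicate 2.

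Of 26 other nucleotide synthesis genes, 10 rose, 1 fell and 15 did not pass the test, with a median of 0.47. Of the 26 differences, 4 were below 0. Gart, a trifunctional enzyme of purine synthesis, read 7.52 and 7.61 in wild-type mock, 8.55 and 8.75 in deficient mock, and 8.48 and 8.68 in deficient miR-17 cells (1.09; limma adjusted p = 0.00645). Prps1, which makes the ribose phosphate donor, rose by 0.71, the purine enzyme Adsl by 0.80, the pyrimidine enzyme Umps by 0.69 and the thymidylate kinase Dtymk by 0.68. The gene that fell was the CTP synthase Ctps2, by 0.55, whereas its relative Ctps rose by 0.76. Ctps and Ctps2 were named after their values were seen. The 10 calls became 1 without wild-type mock replicate 1 or deficient mock replicate 2, 6 when deficient mock replicate 1 was left out and 5 when wild-type mock replicate 2 was. The call of Ctps2 was lost without either wild-type mock array, without deficient mock replicate 2, with the mean of probe sets and with no variance trend.

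Of 10 measured E2F and pocket protein genes, which encode the regulators of S phase transcription, 5 rose, 1 fell and 4 did not pass the test in deficient mock cells. E2f1 read 6.34 and 6.37 in wild-type mock, 6.89 and 7.03 in deficient mock, and 6.64 and 6.55 in deficient miR-17 cells (0.60; limma adjusted p = 0.0342). E2f8, a repressor of the family, rose by 0.88 and the dimer partner Tfdp1 by 0.69. The pocket proteins p107 (Rbl1) and p130 (Rbl2), which hold E2F factors in check, went opposite ways, Rbl1 up by 0.43 and Rbl2 down by 0.51. In deficient miR-17 cells Rbl2 was lower than in wild-type mock cells by 0.95 (limma adjusted p = 0.00741), and Rbl1 differed by 0.04. With miR-17, 4 of the 10 genes differed from deficient mock cells at an unadjusted p under 0.05 in limma. E2f1, Rbl1 and Rbl2 differed by -0.36, -0.39 and -0.44, at unadjusted p of 0.0213, 0.00308 and 0.00342 in limma. E2f5 went the other way, by 0.41 (unadjusted p = 0.0172 in limma), and was named after its values were seen. None of the 4 passed the adjustment. The 5 genes called higher without the cluster became 0 without wild-type mock replicate 1, 1 without either deficient mock array, and 2 without any other single array. The call of Rbl2 in deficient mock cells was lost when any 1 of the 6 arrays was left out. It was also lost with arrays centred on their median and with the mean of a gene's probe sets. The same held without sets of a kind that can match several transcripts or genes.

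**Figure D4:**
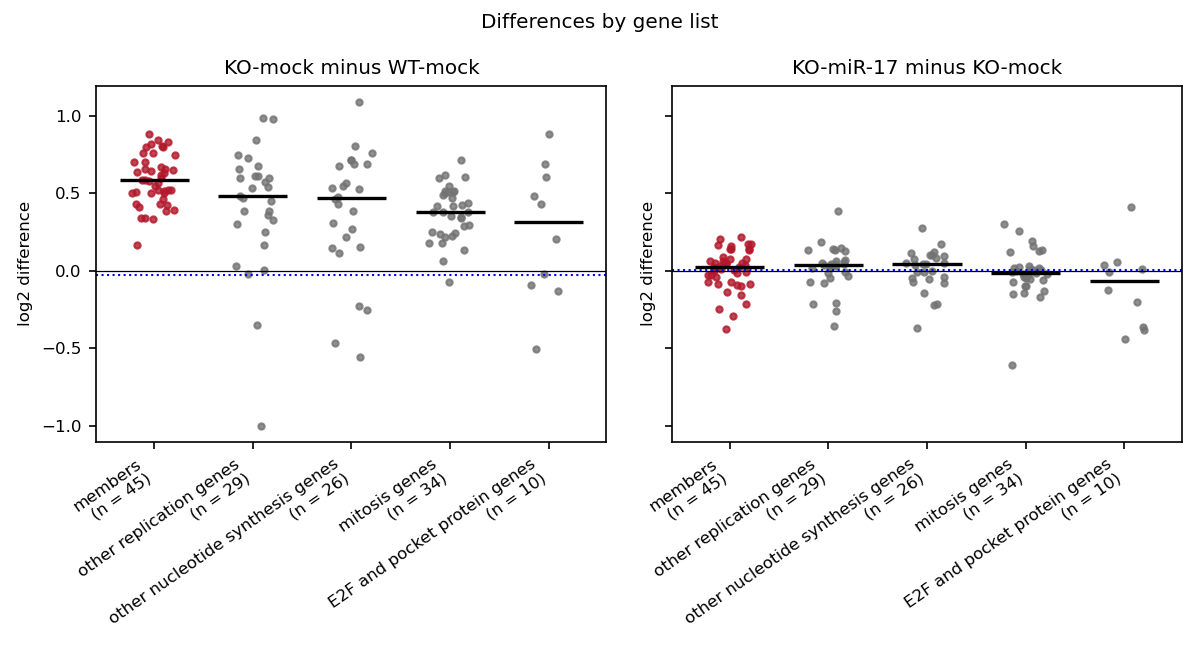
Log2 differences (vertical axis) of single genes (points) in 5 gene lists, for deficient mock minus wild-type mock (left) and deficient miR-17 minus deficient mock cells (right); bars mark list medians and the dotted line the median of all genes. The 45 replication and nucleotide genes lie wholly above 0 on the left, the other lists include genes below 0, and on the right every list median is within 0.07 of 0.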

How the data were processed

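The authors deposited log2 intensities per probe set for 6 one-colour arrays, processed with RMA (version not given) per the submitters' processing notes. RMA makes the distributions of the arrays alike, so a shift of most transcripts at once is lost. That the logarithm is base 2 was taken from RMA's usual output and the span of the data. Of 22690 probe sets, 64 were controls and 20380 had 1 gene symbol in the platform annotation. These named 12393 genes, each represented by its set with the highest mean. The identifiers of 29 sets were not in the RefSeq table (GRCm38.p6).

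All 6 arrays were fitted together (limma 3.58.1 under R 4.3.3; eBayes with a variance trend; 3 residual and 4.69 prior degrees of freedom), with Benjamini-Hochberg adjustment over all genes in each comparison. No covariate entered the fit. With 2 arrays a group, their number limits the precision.

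The 48 genes and all other lists were chosen with earlier results of these data known. Array values were given for the 2 genes of each role with the smallest p in the first comparison, the 5 with the smallest p in each other comparison, and Mcm7. Those of Mcm6, Orc1 and Rfc3 were added after their values were seen. A further part of that rule, calls kept in at least 3 of 4 fits without an array, named no gene. Of other lists, up to 5 genes with the smallest p were eligible. Alternatives varied the arrays, replicate block, low values, scaling, probe sets, variance trend and fit.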

Additional observations from a re-analysis of the deposited data

How the results depend on the processing

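Over all alternatives run, the median difference of the 45 genes lay between 0.46 and 0.73 for deficient mock and between 0.44 and 0.74 for deficient miR-17 against wild-type mock cells, with the ends of both ranges given by leaving out 1 wild-type array. Between the deficient groups it lay between -0.06 and 0.08, on both sides of 0. No difference called in the full fit changed sign. Counts of calls moved more. For deficient mock against wild-type mock cells, 28 genes became 14 with no variance trend, and 0 to 27 when 1 array was left out. For deficient miR-17 against wild-type mock cells, 31 genes became 20 with the mean of a gene's probe sets and 13 with no variance trend. Without sets of a kind that can match several transcripts or genes, 18 of 40 were called. Fewer than 31 were called in each fit that left out 1 array. Low values, both scalings and fitting only the 4 arrays compared kept both counts within 1.5 times. Between the deficient groups no alternative called any of the 45 genes. Over all genes, 810, 0 and 843 calls in the 3 comparisons became 95 to 693, 0, and 74 to 697 when 1 array was left out.

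With the replicate number as a block, 43 and 44 of the 45 genes were called against wild-type mock cells, and 2723, 38 and 2983 of all genes were called. The numbers are not known to pair the samples. Across genes, differences between array 2 and array 1 correlated at 0.429, 0.506 and 0.634 between pairs of groups, with only 2 numbers to judge from.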

Other observations

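Mitosis genes, many of which act after the genome has been copied, were higher without the cluster in part. Of 34 measured, 8 rose in deficient mock cells at a limma adjusted p under 0.05, none fell and 26 did not pass the test, with 33 differences above 0 and a median of 0.38. The mitotic kinases Cdk1 and Plk1 both rose by 0.51, the spindle factor Tpx2 by 0.60, the midzone protein Prc1 by 0.54 and the condensin subunit Smc2 by 0.51. With miR-17 the median difference from deficient mock cells was -0.01. All of these calls were lost without wild-type mock replicate 1 or either deficient mock array. Their count fell without either deficient miR-17 array, and it rose slightly without wild-type mock replicate 2. Whether mitosis genes differ less than the replication genes was not tested.

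Of the 7 CDK inhibitors, which hold the cell cycle back, 1 fell and 1 rose in deficient mock cells. Cdkn1b, which encodes p27, read 10.08 and 10.04 in wild-type mock, 9.40 and 8.95 in deficient mock, and 9.38 and 9.31 in deficient miR-17 cells, a fall of 0.88 (limma adjusted p = 0.0194). Cdkn2c, which encodes p18, rose by 0.73 (limma adjusted p = 0.0266), and the other 5 did not pass the test. No inhibitor was called higher when any single array of these 2 groups was left out, and 1 was called lower when that array was deficient mock replicate 1 and 0 otherwise.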
